A study of Homo sapiens with 7 samples.

Results

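The long arm of chromosome 20 carried 1468 of the 64657 MYCN summits listed for TAE684-sensitive Kelly cells. A summit is the position of locally highest ChIP signal inside a called interval. The members were chosen by position alone: every summit of chromosome 20 at or beyond 29.4 Mb on hg19 was taken, whatever its fold or background, though the arm itself was picked with earlier results of these data known. The 1468 summits lay in 1121 intervals, and 294 of them fell in the last 3 Mb before the final summit of the chromosome at 62959569. The first summit inside the boundary, at 29525262, had a fold enrichment of 4.82, and the last one outside it, at 26257660, had 4.14. No summit lay between these positions, which flank the centromere.

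Kelly is an established human neuroblastoma line with amplified MYCN and a mutated ALK receptor kinase. MYCN-bound chromatin was immunoprecipitated from sensitive cells kept for 48 h in the vehicle DMSO (2 ChIP samples, 1 input sample) and from resistant cells kept for 48 h in the ALK inhibitor TAE684 at 1 µM (2 ChIP and 2 input samples). Each state came with 1 peak list for its ChIP samples together, so the values below have no replicate error, and no test across samples was possible. The 2 lists were the same file in content: all 1468 rows of the arm in the list of the resistant cells also carried the peak names of the sensitive list. The values are given for the sensitive, vehicle-treated cells because the peak names are theirs, and MYCN sites of resistant cells were not analysed here.

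MYCN is a transcription factor of the MYC family that pairs with MAX and binds E-box sequences, mostly at active promoters and enhancers. At the high levels reached in cells with MYCN amplification, it is known to occupy a large share of open chromatin, weaker sites included. The long arm of chromosome 20 is rich in genes, and in RefSeq's gene order on GRCh38 ID1 (an inhibitor of bHLH factors), BCL2L1 (a survival protein of the BCL2 family), TPX2 (a spindle protein), E2F1 (a cell cycle transcription factor), MYBL2 (a cell cycle transcription factor), CEBPB (a bZIP factor), AURKA (a mitotic kinase that stabilises MYCN protein) and CTCFL (also called BORIS, a relative of CTCF) follow each other from the centromere outwards. Toward the end of the arm come several neural genes, among them CHRNA4 (a nicotinic receptor subunit), EEF1A2 (a translation elongation factor of neurons and muscle) and MYT1 (a neural zinc-finger factor). This gene table is on another genome build than the peaks, so no site below was assigned to a gene, and the sequence under the summits was not analysed here.

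The values of a peak list need 3 terms. Fold enrichment, as the authors deposited it, is the ChIP signal at the summit over the local background, each with 1 added. The local background is the input signal, in input fragments, of whichever window around the summit was highest, and it never falls below the genome-wide mean of 1.61. The number of ChIP fragments over a summit and its background were solved from the deposited fold enrichment and p-value, which have 1 joint solution at nearly every summit. The ChIP samples together had 1.56 fragments for each input fragment. Intervals after shares, medians and ratios are 95% intervals for counting error only, since neighbouring summits are not independent, nor are reads that carry no molecular identifiers.

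MYCN summits were dense on the arm. There were 43.7 per Mb, against 21.7 per Mb over the other autosomes, a ratio of 2.01 (1.91 to 2.12). The short arm of the same chromosome had 20.6 per Mb, so the long arm was 2.12 times as dense (1.92 to 2.34). Of 75 stretches of the same length laid back from the last summit of the other autosomes, 5 held more summits, and the lowest density was 2.53, the median 18.8 and the highest 53.8 per Mb. Called intervals covered 1.32% of the arm and 0.660% of the other autosomes. These lengths include sequence that cannot be mapped, and the other autosomes include their centromeres. Counted over 1-Mb bins with at least 1 summit, the ratio was 1.80.

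The arm's sites had a slightly lower median fold enrichment than those of the other autosomes together, and a higher median background. The median fold enrichment was 4.89 (4.76 to 5.0) on the arm and 5.34 (5.32 to 5.38) on the other autosomes. The median background was 9.0 input fragments against 7.70. The median number of ChIP fragments was 68 (66 to 71) against 63 (63 to 64). Other chromosomes had such values too: the median fold and background were 4.87 and 10.4 on chromosome 17, and 4.60 and 11.6 on chromosome 22. Of the 75 stretches as long as the arm, 3 had a lower median fold and 8 a higher median background. Of the arm's summits 147 had a fold enrichment of 10 or more, or 10.0% (8.53 to 11.7), beside 12.0% in the whole list and 11.9% on the other autosomes. This order turned where the background was 4 to 8 input fragments, with 15.3% (11.9 to 19.1) on the arm and 12.6% elsewhere, a value within that interval. With 8 to 12 input fragments the arm had 8.49% and the other autosomes 10.7%. At least 20 was reached at 7 summits, or 0.477% (0.192 to 0.98), beside 0.778% of the whole list. Only 30 summits of the arm, or 2.04% (1.38 to 2.91), had the lowest background the list allows, against 7.01% on the other autosomes and 9.78% on the short arm.

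The intervals themselves were like those of the other autosomes in width and in the share with a single summit. The median width was 280 bp (267 to 290) on the arm and 278 bp (276 to 280) elsewhere. Of the arm's intervals 77.8% (75.2 to 80.2) had a single summit, as did 76.5% of the others (76.1 to 76.9). Those with 4 or more summits were fewer on the arm, at 1.69% (1.02 to 2.63) against 2.64%. Neighbouring summits of 1 interval were a median of 294 bp apart (280 to 307), against 298 bp (296 to 300) elsewhere. Spacing between intervals was closer. For 67.2% of the arm's intervals (64.3 to 69.9) the next one lay within 10 kb, against 59.7% on the other autosomes and 51.8% on the short arm. Chromosomes 17 and 22 had 71.6% and 70.0%. Isolated intervals, with none other within 100 kb, numbered 11 of 1121 on the arm, or 0.981% (0.491 to 1.75), against 4.68% elsewhere. On chromosomes 17 and 22 they made up 1.17% and 0.667%.

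Outside the end of the arm, the fold and background lay nearer to those of the other autosomes. Without the last 3 Mb the arm had a median fold enrichment of 5.10 (4.95 to 5.34), medians of 8.0 for the background and 65 for ChIP fragments, and its density was 1.77 times that of the other autosomes (1.67 to 1.87).

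**Figure D1:**
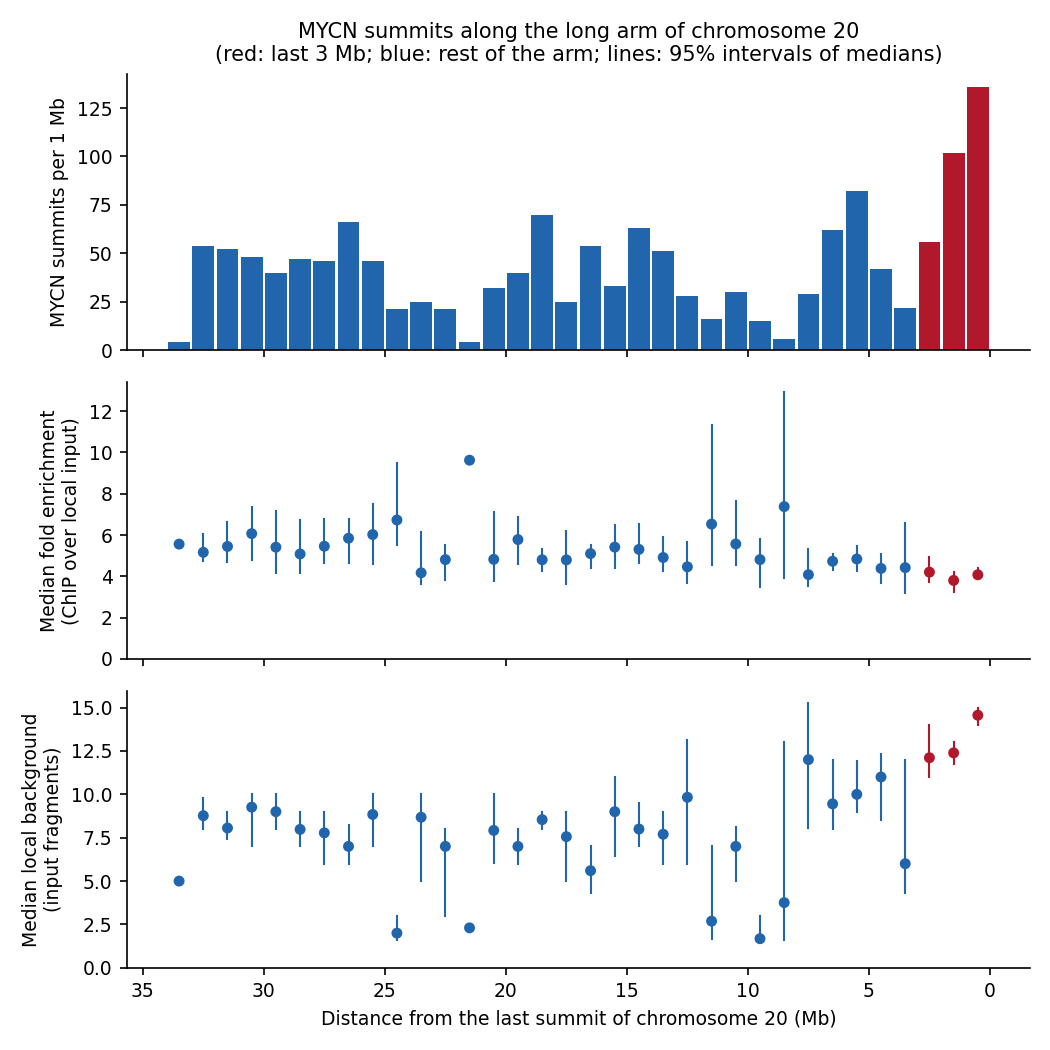
MYCN summits per Mb, median fold enrichment and median local background in 1-Mb steps along the arm, plotted against the distance from the last summit of the chromosome. The last 3 steps, in red, hold 56, 102 and 136 summits from the inside outwards, with median backgrounds of 12.1, 12.4 and 14.6 input fragments, and vertical lines are 95% intervals of the medians (not drawn for 4 summits).

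The last 3 Mb of the arm held many MYCN sites, and these were weakly enriched over a high input. They made up 8.94% of the arm's length and 20.03% of its summits (18.01 to 22.2). Their density was 98 summits per Mb against 38.4 on the rest of the arm, a ratio of 2.55 (2.24 to 2.90). The ratio fell to 1.84 when the last 5 Mb were taken, to 1.94 over occupied bins, and to 1.48 for summits with a fold enrichment of at least 5. The median fold enrichment was 4.03 (3.88 to 4.23) against 5.10 on the rest of the arm. The quartiles were 3.06 and 5.31 at the end, and 3.84 and 7.10 on the rest.

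High folds were rare there. A fold enrichment of at least 10 was reached at 4 of 294 summits, or 1.36% (0.372 to 3.45), against 143 of 1174, or 12.2% (10.4 to 14.2), on the rest of the arm and 12.0% in the whole list. No summit of the end reached 20, which allows a share of up to 1.02%. The 0.596% of the rest of the arm and the 0.778% of the whole list lie below that bound. A high background limits the fold. The largest number of ChIP fragments at any summit of the list was 280. It would give a fold of 12.8 at the end's median background and 20.1 at that of the rest. The highest number on chromosome 17 was also 280, and whether the processing set an upper limit on fragment numbers was not tested. With at most 280 fragments, a fold of 20 could be reached at only 26 of the end's summits, whose background was low enough. A fold of 10 could be reached at 246 of the end's summits. It was reached at 1.63% of these, against 12.4% of the 1150 such summits on the rest of the arm. These sets still differ in background, since 190 summits of the rest and none of the end lay under 4 input fragments. With 4 to 8 the shares were 4.17% (0.105 to 21.1) at the end and 15.97% (12.4 to 20.03) on the rest. With 8 to 12 they were 1.20% (0.0305 to 6.53) and 10% (7.24 to 13.4). With 12 to 16 they were 1.77% (0.215 to 6.25) and 6.79% (3.44 to 11.8). Only with 8 to 12 did the intervals not overlap.

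**Figure D2:**
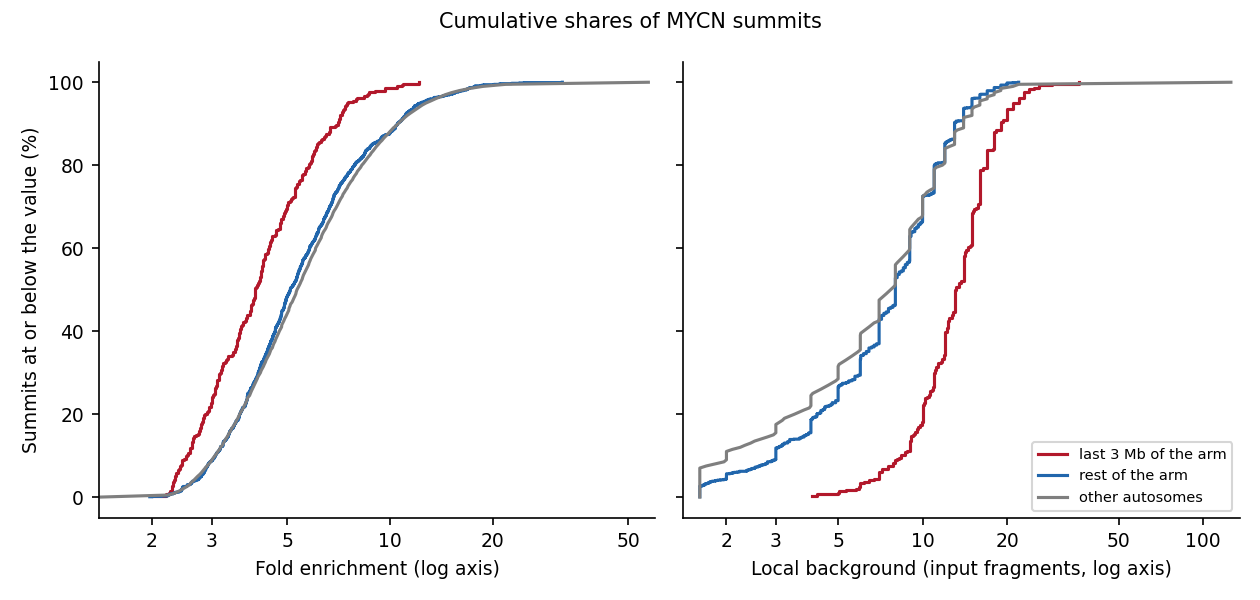
Share of summits at or below each fold enrichment (left) and each local background (right), on log axes, for the last 3 Mb of the arm, the rest of the arm and the other autosomes. The curve of the end lies to the left in fold (median 4.03) and to the right in background (median 13.1), while the rest of the arm stays near the other autosomes.

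Over all summits, the end's lower fold went with a higher, not lower, median number of ChIP fragments. Part of this is built in, since a summit over a higher background needs more fragments to be listed. On the other autosomes the fewest were 22 for a background of 4 to 8 and 44 for 12 to 16. Among summits of like background from 4 to 16 the end's median was lower, as with 64 against 77.5 on the rest for 8 to 12. At 16 or more it was 130.5 against 125.5. In the last 3 Mb the median number of ChIP fragments over a summit was 87 (81 to 93), against 65 (61 to 68) on the rest of the arm. The median background was 13.1 input fragments (12.9 to 14) against 8.0, which is 8.14 and 4.98 times the genome-wide mean. After scaling to input depth, the ChIP signal exceeded the background by a median of 41.9 fragments at the end (37.7 to 46.0) and 32.6 on the rest (31.5 to 34.3). The background was 1.64 times as high at the end and the ChIP fragment number 1.34 times, and the fold enrichment was 0.790 times that of the rest. The median −log10 q was 14.8 (11.9 to 17.5) at the end and 14.7 (13.5 to 15.8) on the rest.

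**Figure D3:**
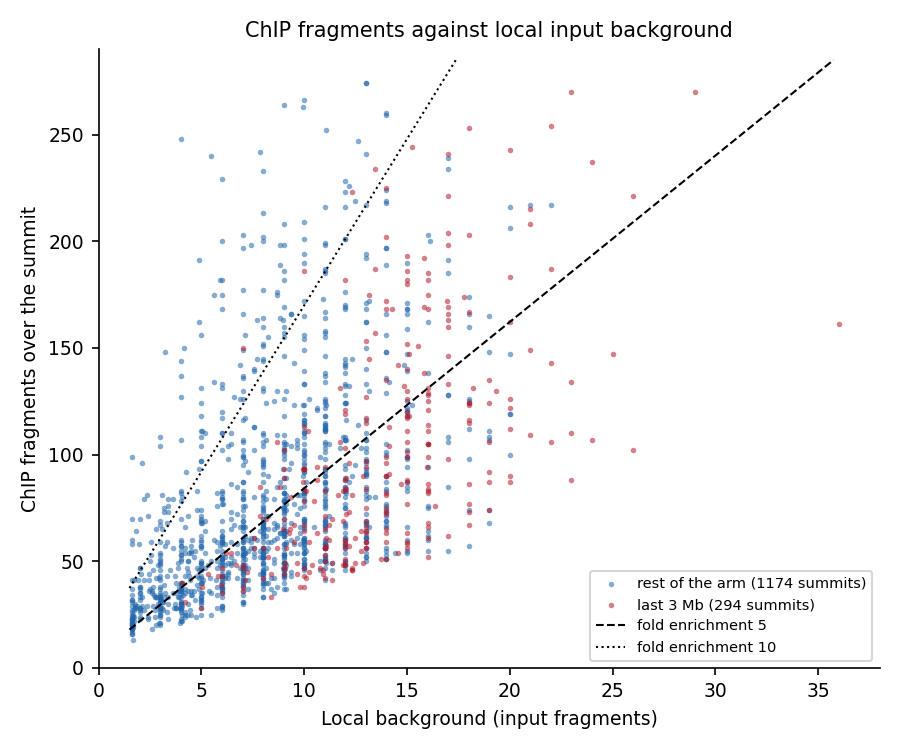
Each point is 1 summit of the arm, by its local background in input fragments and its number of ChIP fragments; dashed and dotted lines mark fold enrichments of 5 and 10. Points of the last 3 Mb, in red, lie further to the right (lowest background 4.05) and mostly under the line for 10, which 4 of 294 reach.

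The input was high at nearly all sites of the last 3 Mb. The lowest background of the 294 summits was 4.05 input fragments, 2.52 times the genome-wide mean, and none was at that mean, which allows a share of up to 1.02%. On the rest of the arm 30 of 1174 were. Such an absence was found at 12 of the 22 autosome ends, and the lowest background at the end of chromosome 22 was higher still, at 2.68 times the mean. A background above 12 was found at 187 summits, or 63.6% (57.8 to 69.1), of the end and at 17.2% (15.1 to 19.5) of the rest, so that 48.1% of all such summits of the arm lay in its last 3 Mb. Whether the background was set by the input over the summit itself or by a wider window made little difference to this order. Where it was a whole number of fragments, as for the summit itself, the medians were 15 at the end and 9.0 on the rest. At the 12 and 96 summits where it matched a 10-kb window, they were 7.92 (5.94 to 9.09) and 3.16 (2.76 to 3.71). Copy number, base composition and open chromatin can all move input signal, and their part in these values was not tested.

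Summits of like background were compared next. With a background of 4 to 8 input fragments, the median fold enrichment was 4.16 (3.75 to 4.69) at the 24 summits of the end and 5.11 (4.82 to 5.42) at 382 of the rest. With 8 to 12 it was 3.72 (3.33 to 4.20) at 83 summits of the end, 4.81 (4.52 to 5.05) at 400 of the rest and 4.99 (4.95 to 5.04) on the other autosomes. In these 2 classes the intervals of the end and the rest did not overlap. With 12 to 16 the values were 4.11 (3.58 to 4.47) at the end and 4.54 (4.24 to 4.95) on the rest. With 16 or more they were 4.18 (3.90 to 5.0) and 4.29 (3.61 to 5.45). In both of these classes the intervals of the end and the rest overlapped. On the other autosomes the median was 4.70 (4.64 to 4.76) with 12 to 16, an interval that did not overlap the end's. With 16 or more it was 4.34 (4.20 to 4.44), within the end's interval. In the class of 8 to 12 the median number of ChIP fragments was 64 (56 to 70) at the end, 77.5 (71 to 82) on the rest and 81 (80 to 82) on the other autosomes.

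**Figure D4:**
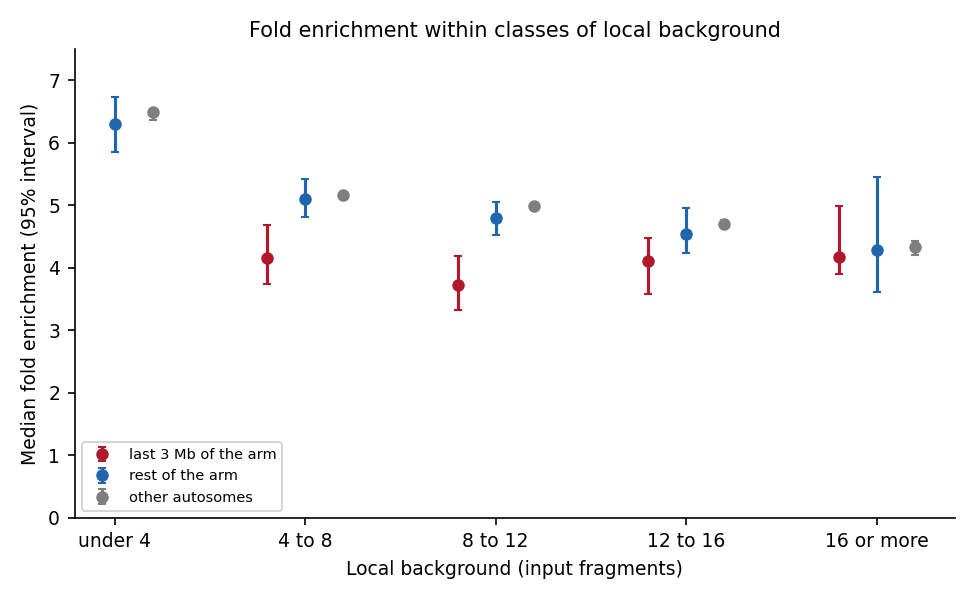
Median fold enrichment, with its 95% interval, in 5 classes of local background for the last 3 Mb of the arm, the rest of the arm and the other autosomes. The end has no summit under 4, lies lowest in the classes 4 to 8 (4.16), 8 to 12 (3.72) and 12 to 16 (4.11), and meets the others at 16 or more (4.18). At 12 to 16 its interval overlaps that of the rest of the arm.

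The ends of the other autosomes were measured in the same way. Among the last 3 Mb of the 22 autosomes, the end of chromosome 20 ranked the third in density with 98 summits per Mb, after chromosome 17 with 109 and chromosome 9 with 98.3. Its median fold enrichment was the lowest of the 22, at 4.03 (3.88 to 4.23), followed by chromosome 22 with 4.16, chromosome 9 with 4.43 and chromosome 17 with 4.59. The value of chromosome 22 lies within that interval. The share of folds of at least 10 at the end of chromosome 20 was also the lowest, at 1.36% (0.372 to 3.45). The next, 2.03% on chromosome 9, lies within this interval. The median background of 13.1 at the end of chromosome 20 was the third highest, after 13.9 on chromosome 9 and 13.3 on chromosome 17. The end of chromosome 17 had a higher median of ChIP fragments, 102 against 87. Dense ends were common, with 17 of 22 denser than the remainder of their chromosome. A median fold below that of the remainder was found at 15 of 22 and a higher median background at 12 of 22.

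**Figure D5:**
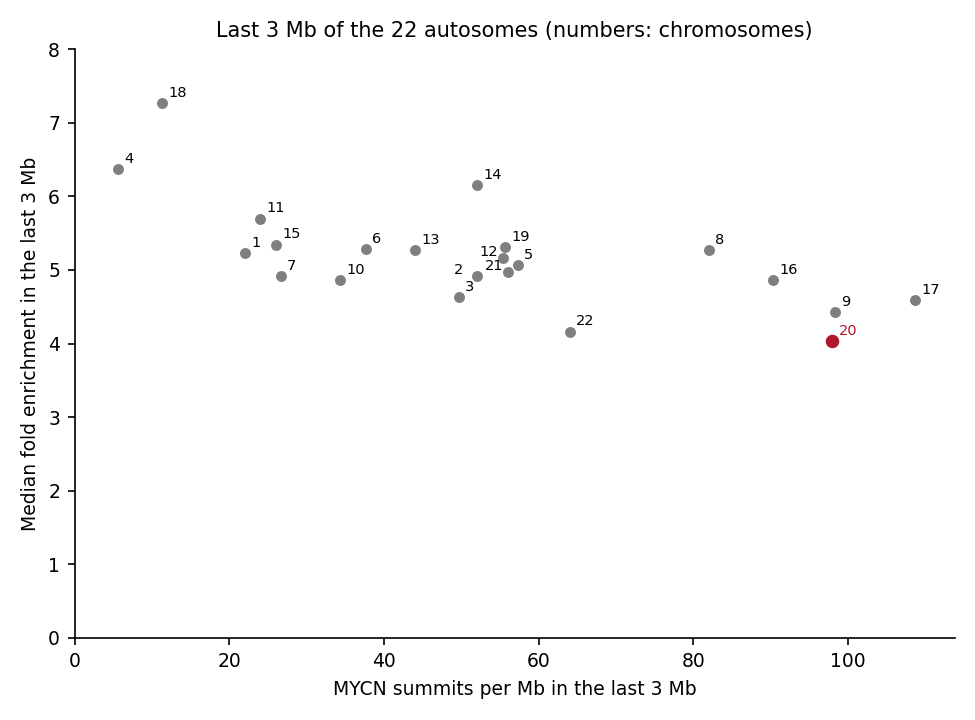
Median fold enrichment against summits per Mb in the last 3 Mb before the final summit of each autosome, numbered by chromosome. Chromosome 20, in red, lies at 98 summits per Mb beside chromosome 9 and has the lowest median, 4.03 (3.88 to 4.23). This interval includes the 4.16 of chromosome 22.

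Windows over the whole length of the autosomes, the ends above included, were compared as well. The autosomes were cut into 3-Mb windows back from each last summit, which gave 950 windows beside the end of chromosome 20, of which 5 held more summits. Of the 480 windows with at least 50 summits, 0 had a lower median fold enrichment and 4 had a higher median background. Among the 29 windows with at least 200 summits the median folds ran from 4.10 to 5.42. The windows were ranked, not tested, and the difference from the nearest ones, 4.10 on chromosomes 1 and 9, lies within the interval of the end's median. With windows of 2 Mb the end ranked the second of 22, and 2 of 460 windows were lower.

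The sites of highest fold enrichment lay outside the last 3 Mb of the arm. The highest fold enrichment was 32.0, at 46670330 in the interval chr20:46669796-46670565, with 248 ChIP fragments over a background of 4. It was the only summit of the arm above 25. At chr20:38258880-38259171 a lone summit reached 24.7 with only 99 ChIP fragments, since its background of 1.61 is the lowest possible. The interval chr20:48595514-48596161 reached 24.0 with 240 fragments over 5.46. The last 2 of these sites had like folds with very different fragment numbers.

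The other sites of highest fold were spread over the arm. The interval chr20:36615827-36616710 reached 22.7, and chr20:42074781-42075556 reached 21.1. Near each other lay chr20:40321394-40322392 with 20.9 and chr20:40284650-40285221 with 20.2. The last of the 10 were chr20:57977556-57978142 with 18.9, chr20:49545919-49546238 with 18.7 and chr20:43921934-43922743 with 18.5. Of these 10 sites, the backgrounds ran from 1.61 to 6 input fragments, all below the arm's median of 9.0.

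In the last 3 Mb the highest fold was 12.2, at chr20:60540832-60541283, with 150 ChIP fragments over a background of 7. It was followed by 10.9 at chr20:60741189-60741478, with 186 fragments over 10. An interval with 4 summits, chr20:62257623-62258960, reached 10.8 with 223 over 12.3, and chr20:62694197-62694877 reached 10.5 with 234 over 13.4. The fifth, chr20:62587293-62588226, reached 9.69 with 225 over 14. All 5 had more ChIP fragments than the lone summit of fold 24.7 named above.

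Ranked by ChIP fragments, the end was well represented. The most fragments on the arm, 274, were found at 33680686 and again at 49548357, each over a background of 13 and each with a fold enrichment of 12.6. Next came 2 summits of the last 3 Mb with 270 fragments each. One, in chr20:62133523-62134535, had a background of 29 and a fold of 5.81, and the other, in chr20:62612143-62612787, had 23 and 7.26. The fifth, in chr20:37063451-37064207, had 266 fragments over 10 and a fold of 15.6. Of the 100 summits of the arm with most fragments, 31 lay in the last 3 Mb, against 1 of the 100 of highest fold, while 20.03% of all its summits did. By −log10 q it was 15 of 100 (8.65 to 23.5), and by the excess of scaled ChIP signal over background 26 of 100 (17.7 to 35.7). The rankings by fold and by fragments shared 40 summits, and part of that is built in because the fragment number enters the fold.

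The highest backgrounds of the arm stood close together near its end. The first 5 all lay between 62130295 and 62152849, in 3 intervals with 3 summits each. They were 36 at 62152150, 29 at 62134325, 26 at 62130521 and at 62133916, and 25 at 62152550. The folds there ran from 2.46 to 5.81 although the ChIP fragments numbered 102 to 270. Inside chr20:62133523-62134535 the fragments differed most, with 102 at one summit and 270 at another over backgrounds of 26 and 29.

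The widest and most divided intervals of the arm lay outside its last 3 Mb. The widest, chr20:57465245-57467991, spanned 2747 bp and held 8 summits with folds of 3.92 to 8.41 and 42 to 172 ChIP fragments. Next was chr20:46413286-46415551, with 2266 bp and 8 summits of 2.64 to 7.33. The third, chr20:48806934-48809110, held 6 summits over 2177 bp, of which 5 had folds of 2.32 to 6.39 and the outermost 15.9. A further interval with 6 summits, chr20:52209624-52211384, rose from 2.33 at its first summit to 12.3 at its last. In the last 2 of these intervals the strongest summit stood at 1 edge, and in the first 2 it stood inside. In all, 19 intervals of the arm held 4 or more summits, or 1.69% (1.02 to 2.63), against 2.64% on the other autosomes. The last 3 Mb held 7 of the 19, or 3.30% of its intervals (1.34 to 6.68), against 1.32% on the rest of the arm (0.684 to 2.29).

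Along the arm dense and sparse stretches alternated. Among the 33 bins of 1 Mb from 30 Mb on, the number of summits ran from 4 to 136 with a median of 45. The densest were 62 to 63 Mb with 136 summits, 61 to 62 Mb with 98, 57 to 58 Mb with 87, 44 to 45 Mb with 71 and 36 to 37 Mb with 63. Density and fold did not follow 1 order among them. The median fold enrichments in these 5 bins were 4.08, 3.72, 4.89, 4.70 and 6.18, and the median backgrounds were 14.6, 12.2, 10.0, 8.54 and 6.58. The bin from 61 to 62 Mb had the lowest median fold of the 33, and 0 of its 98 summits reached 10.

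The listed summits of sparse stretches had low backgrounds. Input away from listed summits was not measured. The 5 bins with under 20 summits were 40 to 41 Mb with 16, 41 to 42 Mb with 4, 51 to 52 Mb with 17, 53 to 54 Mb with 15 and 54 to 55 Mb with 7. Their median backgrounds were 4.9, 2.30, 3, 1.68 and 5 input fragments, all below the arm's 9.0, and their median folds were 5.26, 9.62, 7.65, 4.81 and 8.96. The bin from 53 to 54 Mb had medians of 1.68 for the background, 23 for ChIP fragments and 4.81 for the fold. The longest stretch without an interval, 518 kb, ran from 53945864 to 54463745, at the border of the last 2 of these bins. Next were 460 kb from 29611971 to 30071949 and 417 kb from 41112622 to 41529443. In the last 3 Mb the longest such stretch was 217 kb, and the median gap between intervals was 7.33 kb against 12.5 kb over the whole arm.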

How the data were processed

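MYCN ChIP-seq peaks of Kelly cells were used as deposited, 1 narrowPeak list per state. Per the submitters' processing notes, MACS2 2.1.1 and deepTools 2.2.4, as well as SAMtools 1.3.1, Picard and STAR 2.5.1b, were used with hg19. Their roles, and the way ChIP samples were combined, are not given in these sources. The authors deposited for each summit a fold enrichment (a ratio of ChIP to local background), a −log10 p-value, a −log10 q-value, and an integer score equal to 10 times −log10 q without its decimals. The lowest deposited −log10 q was 2.01.

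Fragment numbers came from MACS2's relations between fold and Poisson p, with 1 ChIP scale of 0.641 that solved 64657 of 64657 summits within 0.0005 of −log10 p. At 24 summits, 2 of them on the arm, 2 numbers fitted and the closer was taken. The procedure returned the known fragment numbers on data simulated from the same relations. Such a simulation cannot show that the deposited values follow them. A background within 0.001 of a whole number, or of a step of a 1-kb or 10-kb window, was assigned to that window in this order. The background scale is input fragments; positions count from 1. Shares have Clopper-Pearson, medians order-statistic and density ratios conditional exact 95% intervals; a count of 0 allows 3 counts.

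Members, lists and windows were chosen with earlier results of these data known. Sites named are the 10 highest folds, the 5 highest in the last 3 Mb, 5 each by fragments and background, the widest and most divided intervals, the densest 5 bins and the longest 3 gaps; sparse bins were chosen after their values were seen. Thresholds, counting units, end lengths and background classes were varied. Python 3.11.15, numpy 2.4.6, pandas 2.3.3, scipy 1.17.1 and matplotlib 3.10.9 were used.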

Additional observations from a re-analysis of the deposited data

How the results depend on the processing

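No paired analysis was possible because the ChIP samples share 1 list per state, and for the same reason no replicate was left out. In every alternative run, the arm stayed denser than the other autosomes, the end denser than the rest of the arm, and the end lower in median fold and in the share of folds of at least 10. The cause of the values that moved was not tested, except that a threshold on fold or −log10 q leaves fewer summits by construction.

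The arm's density ratio was 1.71 for folds of at least 5, 2.2 without chromosomes 17, 19 and 22, and 1.80 over occupied bins. The end's was 1.48 for folds of at least 5, 3.05 for 2 Mb, 1.84 for 5 Mb, 1.94 over occupied bins, 2.06 without its outermost Mb and 3.10 without its innermost. The arm's median fold was 5.26 (−log10 q of at least 5), 6.07 (at least 10), 5.26 (1 summit per interval) and 5.0 (background 4 to 8). The end's was 4.30, 4.91 and 4.34 under the first 3 of these and 3.72 for a background of 8 to 12. The arm's median background was 9.38 for a −log10 q of at least 10 and 8.0 for folds of at least 5 and for 1 summit per interval. The end's was 15 for a −log10 q of at least 10, 14.7 for folds of at least 5, 12.3 without the outermost Mb and 12.2 for single-summit intervals. The arm's share of folds of at least 10 was 15.6% for a −log10 q of at least 10, against 18.49% on the other autosomes. Per interval it was 12.7% against 14.97%. For a background of 4 to 8 it was 15.3% (11.9 to 19.1), above the 12.6% of the other autosomes, which lies within that interval. The end's share was then 4.17% (0.105 to 21.1), or 1 of 24 summits. The 15.97% of the rest of the arm lies within that interval, so this run does not separate the end from the rest. The end's rank by median fold among the 22 ends was 2 with 2 Mb. It was 1 with both thresholds on −log10 q, 1 summit per interval and 5 Mb, and was not computed for the others. The windows of lower median fold numbered 2 with 2-Mb windows, 1 per interval, 2 when windows with at least 20 summits counted, and 0 with both thresholds on −log10 q, with 5 Mb and with at least 100 summits.

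The alternatives on 8 to 12 and 12 to 16 input fragments, single summits, left-out stretches and ranks were chosen after seeing the data. E-box shares were not run, because no hg19 sequence was used. The fewest ChIP fragments at a listed summit of the arm were 13, and 28 at its end.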

Other observations

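Set against gene number in place of length, the arm stood nearer to the other autosomes. RefSeq's table (GRCh38, used only for gene order and counts) lists 357 protein-coding genes beyond the largest gap of chromosome 20 and 18589 on the other autosomes. That is 4.11 MYCN summits per gene on the long arm, 3.01 on the short arm with its 180 genes, and 3.29 on the other autosomes. The ratio of the long arm to the other autosomes was 1.25 per gene, against 2.01 per Mb. The peaks are on another build, so these are counts side by side and not sites matched to genes.

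On the scale of 100 kb, the 3 densest bins of the arm lay in its last 3 Mb. They started at 62.7, 62.1 and 61.4 Mb, held 26, 24 and 22 summits, and had median folds of 3.97, 3.64 and 3.70. The next, from 57.4 to 57.5 Mb, held 20 summits with a median fold of 5.70 and a highest of 16.5. Of 336 such bins, 53 held no summit.

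The lowest fold enrichments of the arm, chosen after their values were seen, were 1.98 at 55865381, 2.02 at 55841977 and 2.02 at 62711586, over backgrounds of 18, 17 and 16 input fragments.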
